A study of Mus musculus with 48 samples.

Results

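The 10 Hnrnp genes examined here were Hnrnpk, Hnrnpa1, Hnrnpa2b1, Hnrnpc, Hnrnpd, Hnrnpl, Hnrnpm, Hnrnpu, Hnrnpf and Hnrnph1, a list of heterogeneous nuclear ribonucleoprotein genes matched by gene identifier among 23862 genes. E14TG2a mouse embryonic stem cells (mESCs), grown on gelatin in 2i + LIF medium with serum, were treated with 1 µM flavopiridol, and whole-cell, nuclear, cytosolic and membrane poly(A) RNA was sequenced at 30, 60, 120 and 240 min in 3 independently passaged replicates, giving 48 libraries in 16 groups of 3. Every group carried the drug. The deposited values are ratios to the untreated 0 min level of the same gene and fraction, so that 1 means no change since 0 min. The last time is 240 min in the sample labels and 180 min in the harvest protocol, and 240 was used. No gene was altered and no untreated library was analysed here, so the course over time in the presence of drug is the only contrast. The scaling between libraries rests on long-lived mRNAs, and in such bulk samples fewer cells and less RNA per cell cannot be told apart.

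The hnRNPs are abundant RNA-binding proteins that coat nascent pre-mRNA in the nucleus, where they steer splicing, 3′ end formation and export, and several of them shuttle to the cytoplasm and act on translation and mRNA decay. Flavopiridol inhibits CDK9, the kinase that releases RNA polymerase II into productive elongation. Once new synthesis stops, an mRNA leaves the nucleus by export or by decay, and a cytosolic or membrane-bound mRNA is lost by decay while export still feeds it. A ratio in one fraction therefore mixes arrival and loss.

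All 10 genes were found, but not in every library, since a gene at 0 is not listed. Hnrnpk, Hnrnpa1, Hnrnpa2b1, Hnrnpc, Hnrnpd, Hnrnpu and Hnrnpf were listed in all 48 libraries, Hnrnpl in 44, Hnrnpm in 34 and Hnrnph1 in 7. Tests used genes that all 12 libraries of the fraction listed, which left 8 whole-cell, 9 nuclear, 7 cytosolic and 7 membrane members. Libraries listed 15067 to 19501 genes. Of 8 stem cell markers 6 were listed in all 48 libraries, Zfp42 in 47 and Esrrb in 37. Of the fibroblast list Postn and Lum were listed in 0 libraries, Col3a1 in 3, Col1a2 in 12, Thy1 in 43 and Col1a1 in 44. Of the differentiated-cell list Afp was listed in 0, Sox17 in 1, Pax6 in 7, Gata6 in 42 and T in 46. Ratios to 0 min give no level for these markers, and their part in the results was not tested.

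The whole numbers behind a ratio differed widely among members. Within a fraction a gene's ratios stood to each other as whole numbers, within 0.0001, once 1 factor per library was taken out. This held for 98.8% to 99.5% of genes with 12 listed libraries, with the same divisor in all 3 replicates. The smallest such numbers bound the reads behind a ratio from below. They summed to between 3188323 and 4896386 per library, and the median gene had a mean of 63.25 to 72.5 per library. Hnrnpd stood at 197 to 964 and Hnrnpa1 at 81 to 564, whereas Hnrnpc stood at 1 to 26, Hnrnpl at 1 to 16 and Hnrnpm at 1 to 18. Hnrnpk ranged from 1 to 209, with its lowest values in the membrane fraction at 120 and 240 min. Hnrnpu stood at 3477 to 6890 in the membrane fraction, and its numbers were too large to resolve elsewhere (the search ended at 5000 for the lowest library). For comparison, Gapdh, an abundant glycolytic mRNA, stood at only 1 to 11 in the cytosol and was not listed in every library, and how many and which of a gene's reads a row holds is not given in the sources used here. A single divisor for all replicates also means that the distance of a ratio from 1 carries no replicate error of the 0 min level. Differences over time do not depend on it.

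**Figure D1:**
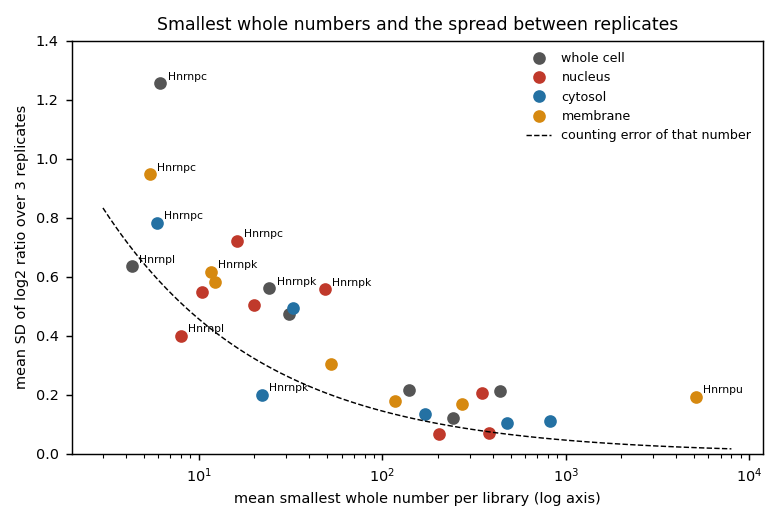
Each point is 1 member in 1 fraction, with the mean smallest whole number per library on the x axis (log scale) and the mean SD of the log2 ratio over 3 replicates on the y axis. The dashed line is the SD that counting error would give if the numbers were the reads. Members with small numbers lie at the upper left, with Hnrnpc in whole-cell RNA highest at an SD of 1.26, while the largest number, that of Hnrnpu in the membrane fraction, has an SD of 0.19 and Hnrnpa1 in the nucleus the lowest SD, 0.07.

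Averaged over the 16 groups, the SD of the log2 ratio was 0.12 for Hnrnpa1, 0.13 for Hnrnpu, 0.14 for Hnrnpd and 0.21 for Hnrnpa2b1, against a median of 0.21 over the 10694 genes listed in all 48 libraries. It was 0.48 for Hnrnpk, 0.51 for Hnrnpf and 0.93 for Hnrnpc. For Hnrnpc this left slope errors of 0.19 to 0.25 log2 units per hour, and a nuclear slope of 0.33 did not pass.

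The members did not move as 1 group over the time course. A slope of log2 ratio on time was fitted by limma for every gene, with Benjamini-Hochberg adjustment over all genes of the fraction and an adjusted p under 0.05 counted as a change. Of the 8 members tested in whole-cell RNA 3 fell and 0 rose, beside 56.9% and 3.39% of 12762 genes. Of the 8 nuclear members other than Hnrnpk 3 fell and 1 rose, beside 61.9% and 3.32% of 13343 genes. Hnrnpk, whose nuclear values are given as a description, would make the falling count 4 of 9, and nuclear counts under other settings include it. Cytosolic RNA had 5 of 7 falling and 0 rising (67.1% and 2.95% of 11979 genes), and membrane RNA likewise had 5 of 7 and 0 (62.2% and 4.09% of 12408 genes). In the order whole cell, nucleus, cytosol, membrane, the median member slope was -0.06, -0.27, -0.16 and -0.22 log2 units per hour, beside -0.22, -0.30, -0.28 and -0.26 over all genes. No member rose at an unadjusted p under 0.05 either where 0 are counted. Without replicate 3 the falling count dropped to 2 nuclear members (47% of all genes) and 2 cytosolic members (59.1%). In the membrane fraction it dropped to 2 members without replicate 1 (50.2%) or without replicate 2 (56.1%).

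These directions depend on the scaling of the libraries. With the median gene of each library set to the same level, the median slope of all genes moved to between 0.0019 and 0.012. The members called lower and higher then became 2 and 3 (whole cell), 3 and 4 (nucleus), 0 and 4 (cytosol), and 2 and 1 (membrane), where 29.2% to 32.4% of all genes were lower and 28.3% to 29.6% higher. With 7 mitochondrially encoded mRNAs as the reference (those listed in all 48 libraries), the corresponding pairs were 5 and 0, 2 and 2, 0 and 0, and 6 and 0, where 71.4%, 20.7%, 27.6% and 80.9% of all genes were lower and 0.669% to 4.73% higher.

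**Figure D2:**
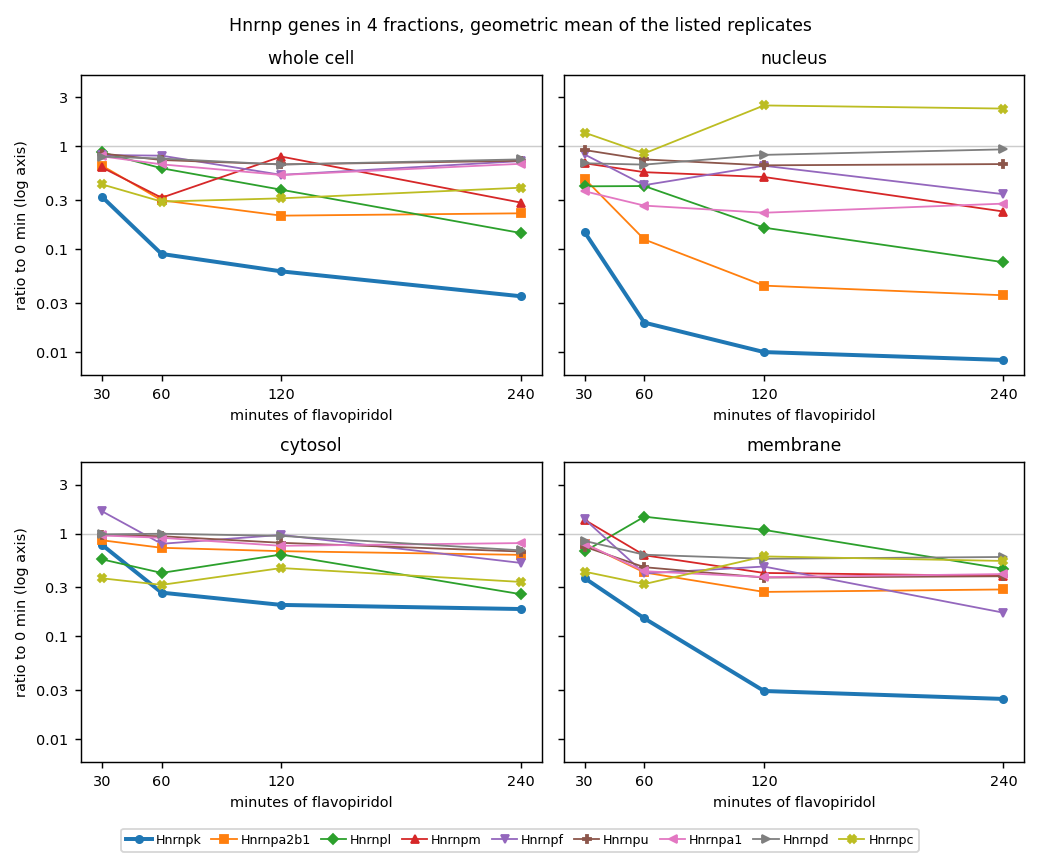
Ratio to 0 min on a log axis against minutes of flavopiridol, 1 panel per fraction, each line the geometric mean of the listed replicates of 1 member (3 unless a library does not list the gene). Hnrnph1 is not drawn. Hnrnpk runs below the others in every panel from 60 min on, and the lines spread farthest apart in the nucleus.

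Hnrnpk encodes a protein that binds cytosine-rich RNA and DNA through KH domains. The gene lies on the minus strand at chr13:58391142-58403343 (GRCm38), hosts Mir7-1 within its body, and has 34 annotated transcripts, 18 of them coding and 13 with a retained intron. In the nucleus its ratio was 0.0646, 0.212 and 0.236 in replicates 1 to 3 at 30 min, 0.0160, 0.0159 and 0.0286 at 60 min, 0.0104, 0.00888 and 0.0110 at 120 min, and 0.00660, 0.0130 and 0.00694 at 240 min. The 30 min libraries did not overlap with any later one, and the values at 120 and 240 min overlapped. The mean ratio went from 0.171 ± 0.093 (SD, n = 3) at 30 min to 0.0202 ± 0.0073 at 60 min. Replicate 1 at 30 min was the lowest of its group for Hnrnpk and also had a low log2 median over all genes, -0.76 against -0.08 and -0.28. The smallest whole numbers behind these nuclear ratios were 74 to 209 at 30 min and 10 to 30 afterwards.

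In the cytosol the ratio of Hnrnpk was 0.748, 0.813 and 0.784 at 30 min, 0.273, 0.229 and 0.303 at 60 min, 0.149, 0.224 and 0.249 at 120 min, and 0.201, 0.165 and 0.190 at 240 min. All 3 libraries at 30 min lay above every later library. The step from 30 to 60 min was -1.55 ± 0.20 (SE) on the log2 scale (limma, adjusted p = 0.0157), and the libraries at 120 and 240 min overlapped. Over the whole course the cytosolic slope was -0.46 ± 0.13 log2 units per hour (limma, adjusted p = 0.00687), and the call was lost without replicate 3 (-0.46, adjusted p = 0.0514), with libraries centred on the median gene (-0.18, adjusted p = 0.248) and with mitochondrial mRNAs as reference (-0.31, adjusted p = 0.175). In whole-cell RNA the slope was -0.77 ± 0.18 (adjusted p = 0.00215) and in the membrane fraction -1.06 ± 0.22 (adjusted p = 0.000961). The whole-cell ratio ranged from 0.288 to 0.366 at 30 min and from 0.0224 to 0.0470 at 240 min, and the membrane ratio from 0.298 to 0.455 and from 0.00870 to 0.0493. The membrane values at 120 and 240 min rest on whole numbers of 1 to 5.

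**Figure D3:**
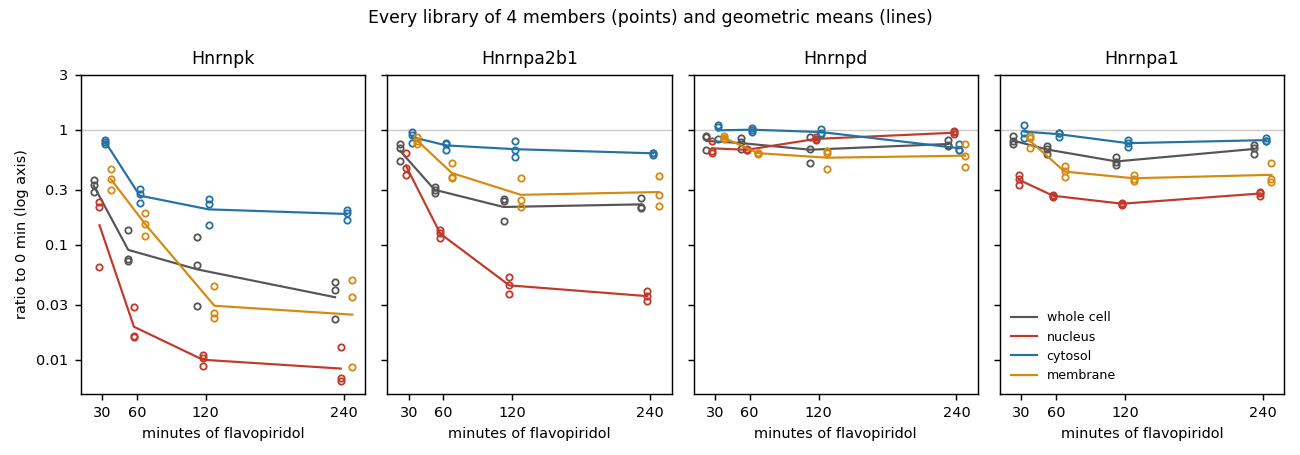
Every library of Hnrnpk, Hnrnpa2b1, Hnrnpd and Hnrnpa1 as an open point and the geometric means as lines, coloured by fraction, with the ratio to 0 min on a log axis. Hnrnpk, Hnrnpa2b1 and Hnrnpa1 have their nuclear means lowest at every time, while the nuclear points of Hnrnpd at 240 min lie above its cytosolic ones.

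Hnrnpa1 and Hnrnpa2b1 encode related proteins with a pair of RNA recognition motifs and a glycine-rich tail, the first a shuttling splicing repressor and the second known also for RNA transport. Their genes lie on the plus strand at chr15:103240432-103246692 and on the minus strand at chr6:51460932-51469894. The nuclear ratio of Hnrnpa2b1 was 0.401, 0.625 and 0.459 at 30 min, 0.126, 0.133 and 0.115 at 60 min, 0.0524, 0.0443 and 0.0377 at 120 min, and 0.0395, 0.0360 and 0.0323 at 240 min. Libraries at 30, 60 and 120 min did not overlap with each other. Its nuclear slope was -0.93 ± 0.18 (limma, adjusted p = 0.000601), and the step from 30 to 60 min was -1.96 ± 0.25 (adjusted p = 0.0164). In the cytosol the ratio was still 0.631, 0.631 and 0.603 at 240 min, after 0.760, 0.895 and 0.942 at 30 min, and the slope was -0.12 ± 0.04 (adjusted p = 0.0107). That cytosolic slope turned positive, 0.16 (adjusted p = 0.000688), when libraries were centred on the median gene, and was 0.038 with mitochondrial mRNAs as reference, and without replicate 3 it did not pass (-0.095, adjusted p = 0.089). Whole-cell and membrane RNA lay between, with slopes of -0.35 ± 0.11 (adjusted p = 0.0151) and -0.35 ± 0.11 (adjusted p = 0.0121). The whole-cell call was lost without replicate 2 (adjusted p = 0.0896) or 3 (0.109) and the membrane call without replicate 1 (0.118) or 2 (0.0651), and both were lost with libraries centred on the median gene (-0.12, adjusted p = 0.259, and -0.091, adjusted p = 0.408).

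Hnrnpa1 showed an early drop in the nucleus and then little change. Its nuclear ratio was 0.331, 0.372 and 0.402 at 30 min, 0.259, 0.267 and 0.273 at 60 min, 0.228, 0.222 and 0.231 at 120 min, and 0.266, 0.287 and 0.283 at 240 min. The 240 min libraries all lay above the 120 min ones. The nuclear slope was -0.07 ± 0.07 and did not pass (limma, adjusted p = 0.34), and over 30, 60 and 120 min alone it was -0.43 (adjusted p = 0.0366). In the cytosol Hnrnpa1 stayed between 0.710 and 1.11, with a slope of -0.07 ± 0.03 that did not pass (adjusted p = 0.0745). Only its membrane slope passed, at -0.20 ± 0.08 (adjusted p = 0.0495), and that call was lost without replicate 1 (adjusted p = 0.228), 2 (0.153) or 3 (0.0637). The membrane step from 30 to 60 min was -0.89 ± 0.16 (adjusted p = 0.0178).

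Hnrnpd encodes AUF1, which binds AU-rich elements and is known for promoting mRNA decay. The gene is on the minus strand at chr5:99955935-99978938. Its nuclear ratio was 0.648, 0.791 and 0.632 at 30 min, 0.673, 0.662 and 0.663 at 60 min, 0.824, 0.854 and 0.807 at 120 min, and 0.962, 0.906 and 0.944 at 240 min. The libraries at 120 and at 240 min did not overlap with each other or with the earlier ones. It was the only member that rose in the nucleus as deposited, with a slope of 0.14 ± 0.03 (limma, adjusted p = 0.00239), and without replicate 3 the slope was 0.13 and no longer passed (adjusted p = 0.0651). In the cytosol the ratio moved the other way, from 0.833, 1.08 and 1.05 at 30 min to 0.742, 0.666 and 0.659 at 240 min. That slope was -0.16 ± 0.03 (adjusted p = 0.00056), and it turned to 0.13 (adjusted p = 0.00409) with libraries centred on the median gene and was -0.0015 (adjusted p = 0.995) with mitochondrial mRNAs as reference. Whole-cell and membrane slopes of -0.02 ± 0.05 and -0.11 ± 0.06 did not pass (adjusted p = 0.715 and 0.112).

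Hnrnpc encodes a protein that binds uridine tracts and is largely kept in the nucleus. The gene is on the minus strand at chr14:52073377-52104028. Its nuclear ratio was 1.98, 2.50 and 0.512 at 30 min, 0.286, 1.52 and 1.44 at 60 min, 2.89, 2.44 and 2.22 at 120 min, and 2.50, 2.24 and 2.28 at 240 min. Every nuclear library at 120 and 240 min lay above 2, and the earlier libraries were scattered from 0.286 to 2.50. The slope was 0.33 ± 0.19 and did not pass as deposited (limma, adjusted p = 0.144), whereas it passed at 0.64 (adjusted p = 0.012) with libraries centred on the median gene and at 0.53 (adjusted p = 0.0157) with mitochondrial mRNAs as reference. Its whole-cell (0.03 ± 0.25), cytosolic (-0.0030 ± 0.19) and membrane (0.16 ± 0.20) slopes did not pass. These ratios rest on whole numbers of 2 to 26 in the nucleus and 1 to 13 elsewhere.

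Hnrnpf and Hnrnph1 encode related proteins that bind runs of guanines. Hnrnpf, on the plus strand at chr6:117900324-117925622, had the highest single ratio of any member at 30 min in whole-cell RNA, the cytosol and the membrane fraction. Its cytosolic ratio was 2.704, 1.16 and 1.44 at 30 min, 0.989, 0.585 and 0.871 at 60 min, 1.303, 1.10 and 0.641 at 120 min, and 0.665, 0.556 and 0.378 at 240 min. The cytosolic slope was -0.38 ± 0.11 (limma, adjusted p = 0.00983), which was not kept without replicate 3 (-0.32, adjusted p = 0.103), with libraries centred on the median gene (-0.098, adjusted p = 0.474) or with mitochondrial mRNAs as reference (-0.22, adjusted p = 0.276). In the membrane fraction the ratio went from between 1.08 and 1.84 at 30 min to between 0.0823 and 0.327 at 240 min, with no overlap, and the slope was -0.71 ± 0.16 (adjusted p = 0.00143). The nuclear slope of -0.27 ± 0.12 did not pass (adjusted p = 0.0713) but did without replicate 1 (-0.41, adjusted p = 0.0111), and the whole-cell slope of -0.07 ± 0.10 did not (adjusted p = 0.6). Hnrnph1, on the plus strand at chr11:50376990-50386528, was listed in 7 nuclear libraries and in 0 of the other fractions. Its nuclear ratios were 0.206, 0.647 and 1.86 at 30 min, 0.445 and 0.197 in the 2 libraries at 60 min, 0.570 at 120 min and 0.139 at 240 min. It was not tested, and its whole numbers were 1 to 7.

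Hnrnpl and Hnrnpm encode splicing regulators, the first a binder of CA-rich and the second of GU-rich sequence. Hnrnpl is on the plus strand at chr7:28808541-28822266, and Hnrnpm is on the minus strand at chr17:33646233-33686860, where it overlaps March2 on the same strand. The nuclear ratio of Hnrnpl was 0.228, 0.513 and 0.589 at 30 min, 0.493, 0.499 and 0.285 at 60 min, 0.149, 0.151 and 0.192 at 120 min, and 0.0739, 0.0662 and 0.0863 at 240 min. There was no step from 30 to 60 min that passed (0.0090 ± 0.36, limma, adjusted p = 0.991), and the later libraries lay below all earlier ones. The slope was -0.75 ± 0.10 in the nucleus (adjusted p = 3.2e-05) and -0.73 ± 0.12 in whole-cell RNA (adjusted p = 0.000119). In the cytosol and membrane fraction Hnrnpl was listed in 10 of 12 libraries each, from 0.150 to 1.15 and from 0.213 to 1.87. Hnrnpm was listed in 0 of 12 cytosolic libraries. Its nuclear ratio was 0.500, 0.629 and 1.03 at 30 min and 0.227, 0.338 and 0.165 at 240 min, and its nuclear slope was -0.43 ± 0.10 (adjusted p = 0.00243). The slope was -0.26 without replicate 3 (adjusted p = 0.058) and -0.12 with libraries centred on the median gene (adjusted p = 0.315).

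Hnrnpu encodes scaffold attachment factor A, which joins chromatin and nuclear RNA. The gene is on the minus strand at chr1:178321108-178337797 and has 1 annotated coding transcript. Its nuclear ratio was between 0.789 and 1.09 at 30 min and between 0.648 and 0.692 at 240 min, with no overlap. The nuclear slope of -0.11 ± 0.05 did not pass (limma, adjusted p = 0.0554). In the cytosol the ratio was 0.933, 0.951 and 1.02 at 30 min and 0.733, 0.650 and 0.630 at 240 min, and the slope was -0.16 ± 0.02 (adjusted p = 4.83e-05). In the membrane fraction it went from between 0.718 and 0.761 to between 0.299 and 0.541, with a slope of -0.22 ± 0.08 (adjusted p = 0.0236) that was lost without replicate 1 (adjusted p = 0.221) or 2 (adjusted p = 0.108). Centred on the median gene, the nuclear, cytosolic and membrane slopes were 0.21, 0.12 and 0.042. With mitochondrial mRNAs as reference the nuclear slope was 0.099 and the cytosolic one -0.0026 (adjusted p = 0.99).

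**Figure D4:**
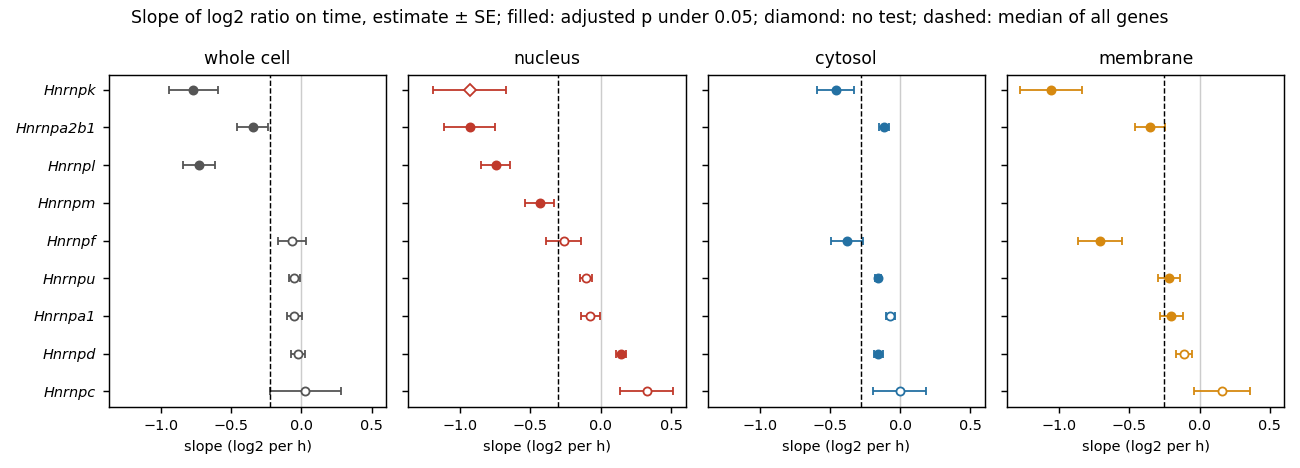
Slope of the log2 ratio on time (x axis, log2 units per hour, estimate ± SE) for each member with 12 listed libraries in the fraction. Filled points passed the limma adjusted p threshold, the diamond is nuclear Hnrnpk, for which no test is drawn, and the dashed line is the median slope of all genes. Nuclear slopes run from -0.93 for Hnrnpa2b1 and Hnrnpk to 0.33 for Hnrnpc.

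Some members were already lower at 60 than at 30 min. With time as a factor, the members lower at 60 than at 30 min were Hnrnpa2b1 in whole-cell RNA (1 of 8, where 2.32% of genes were), Hnrnpa2b1 in the nucleus (1 of 8 without Hnrnpk, 2.18%), Hnrnpk in the cytosol (1 of 7, 1.89%), and Hnrnpa1, Hnrnpa2b1 and Hnrnpf in the membrane fraction (3 of 7, 12.7%). The nuclear step of Hnrnpk was -2.93 ± 0.50, given as a description. With 1 replicate left out, 0 genes of any kind were lower in 10 of the 12 such fits, so those fits say nothing about the members. In the nucleus without replicate 1, 2 members passed, where 5.43% of genes did, and without the nuclear 30 min library of replicate 1 alone 5 of 9 passed, where 25.3% did.

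Whether the nucleus and the cytosol differed was tested as a difference between slopes in 1 limma model over both. Of 7 members listed in all 24 libraries 2 differed, where 20.6% of 11232 genes did. Hnrnpa2b1 fell faster in the nucleus, by -0.82 ± 0.19 log2 units per hour (adjusted p = 0.00463), and this did not pass without replicate 1 (-0.85, adjusted p = 0.05) or 3 (-0.83, adjusted p = 0.0593). Hnrnpd went the other way, with a nuclear slope higher by 0.30 ± 0.04 (adjusted p = 6.66e-05). Both differences missed the threshold with mitochondrial mRNAs as reference, at -0.77 (adjusted p = 0.21) and 0.35 (adjusted p = 0.398), where 0.0712% of genes passed. For Hnrnpk, singled out with its nuclear half-life known, the difference is given as a description. It was -0.47 ± 0.30, was not among the 2 that differed, and turned to 0.10 with a pseudocount of 0.1. The other 4 differences ran from -0.0044 for Hnrnpa1 to 0.33 for Hnrnpc and did not pass. Between the membrane fraction and the cytosol 0 of 7 members differed by limma, where 6.7% of 11086 genes did, both at an adjusted p under 0.05. At an unadjusted p under 0.05 there was 1 member (Hnrnpk, -0.60 ± 0.26). The share of all genes at that looser threshold is not given. The fractions of a plate come from the same cells, and with the harvest as a block 1 of 7 passed, Hnrnpf (-0.33, adjusted p = 0.0233), where 8.65% of genes did.

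Single-exponential decay fitted to the ratios gave members a wide span of half-lives. In the nucleus the half-life was 9.84 min for Hnrnpk, with fits to the single replicate series of 16.5, 8.06 and 9.95 min. Of 13343 genes 0.0899% had a shorter one, a rank given as a description, since Hnrnpk was singled out with this half-life known. The value is shorter than the first time measured, so it rests on the fall from 30 to 60 min. Hnrnpa2b1 followed with 15.8 ± 3.1 min (SD over the 3 series), also shorter than the first time measured. Then came Hnrnpl with 75.1 ± 36.5 min, Hnrnpm with 148 ± 119 min and Hnrnpf with 199 min. The values of Hnrnpu (477 min) and Hnrnpa1 (614 min) exceeded the time course and are extrapolations. Hnrnpc and Hnrnpd had no finite value, since they did not decline from 30 min on. From Hnrnpl to Hnrnpu, neighbours in this order lay within the spread between series. With a free amplitude and no 0 min point, the fits leave out any loss before 30 min. Hnrnpa1 already stood at 0.331 to 0.402 in the nucleus at 30 min, so its 614 min describes only the later course.

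Elsewhere Hnrnpk again had the shortest half-life of the members, with a whole-cell value of 20.5 ± 18.4 min, a cytosolic one of 30.3 ± 13.2 min and a membrane one of 23.7 ± 11.9 min. Among membrane values Hnrnpf came next with 33.9 ± 29.5 min, which is within that spread. For Hnrnpa2b1 the cytosolic half-life of 475 ± 180 min stood against 77.8 ± 34.8 min for whole cells and 94.5 ± 40.9 min for membranes. Medians over members in the order whole cell, nucleus, cytosol, membrane were 730, 199, 410 and 197 min, beside 244, 176, 213 and 219 min over all genes. The SD of the member median over the 3 series was between 159 and 329 min.

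Hnrnpk was set against the other members in the nucleus, as a description, because it was singled out with its nuclear half-life known. Its ratio was the lowest of all listed members in 12 of 12 nuclear libraries. Relative to the mean log2 ratio of the other listed members (8 or 9 per library), Hnrnpk stood at -2.15 ± 0.68 (SD, n = 3) at 30 min, -4.46 ± 0.36 at 60 min, -5.35 ± 0.18 at 120 min and -5.17 ± 0.60 at 240 min. Those differences correspond to ratios 4.45, 22.1, 40.9 and 35.9 times lower. Hnrnpa2b1 was the nearest member by pattern.

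**Figure D5:**
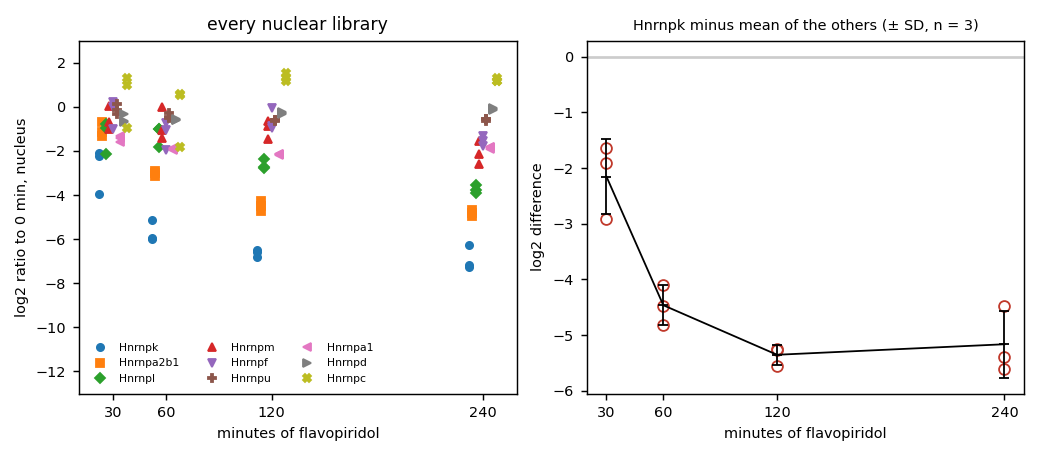
Left, log2 ratio to 0 min in every nuclear library of the 9 members that all 12 list, set side by side at each time. Hnrnph1 is not drawn. Right, Hnrnpk minus the mean of the other listed members in each nuclear library (open points) with mean ± SD over 3 replicates, which goes from -2.15 at 30 min to -5.35 at 120 min.

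Likeness to Hnrnpk was measured as the root mean square difference of mean log2 ratio over the 16 groups. Among 8238 protein-coding genes the nearest were Eif4a2 (0.87 log2 units), an RNA helicase of translation initiation, and Brd8 (1.05), a subunit of a histone acetyltransferase complex. The members listed in all libraries were at 2.06 for Hnrnpa2b1 and at 3.00 to 3.82 for the rest, and the median gene was at 3.40.

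The wider hnRNP group was taken as 22 further genes. Of these Hnrnpll, Pcbp2 and Raly were listed in 0 libraries. Of those tested, 4 of 15 fell in whole cells, 8 of 17 in nuclei, 11 of 15 in cytosol and 7 of 13 in membranes. Of all genes 56.9%, 61.9%, 67.1% and 62.2% fell in these fractions. As deposited 0 of the further genes rose, beside 2.95% to 4.09% of all genes, and 0 did at an unadjusted p under 0.05. The median slopes of the further genes were -0.12, -0.17, -0.17 and -0.25. In the nucleus the lowest slopes were those of Hnrnph3 (-0.88 ± 0.20, limma, adjusted p = 0.00148) and Hnrnpr (-0.47 ± 0.12, adjusted p = 0.00382), and the highest, which did not pass, those of Ptbp2 (0.21 ± 0.21) and Khdrbs1 (0.07 ± 0.05). In whole-cell RNA Hnrnpr (-0.42 ± 0.10, adjusted p = 0.00265) and Ptbp3 (-0.31 ± 0.17, not passing) were lowest and Ptbp2 (0.25 ± 0.20) and Pcbp4 (0.09 ± 0.08) highest. Hnrnpr (-0.42 ± 0.07) and Pcbp1 (-0.42 ± 0.03) were lowest in the cytosol and Hnrnpr (-0.54 ± 0.11) and Ptbp3 (-0.52 ± 0.12) in the membrane fraction, all passing, while Hnrnpul1 (-0.07 and -0.02) and Pcbp4 (-0.03 and 0.05) were highest there and did not pass. The nucleus and cytosol differed for 3 of 15, Hnrnpa0, Pcbp1 and Khdrbs1, all with the higher slope in the nucleus (0.17, 0.17 and 0.18). Of all genes 20.6% differed. For the further genes only calls under the deposited scaling are given.

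Near-identical copies and annotated isoforms also set the members apart. At 90% identity over at least 50 percent of the longest coding transcript, Hnrnpa1 matched the transcripts of 10 annotated pseudogenes, Hnrnpf of 3 and Hnrnpa2b1 of 1, and the other 7 members of 0. All stretches of 50 bases in that transcript were sought in other genes' annotated transcripts. The share found in no other gene was 51.0% for Hnrnpf, 53.6% for Hnrnpa1, 65.5% for Hnrnpk and 71.2% for Hnrnpm. It was 88.7% for Hnrnpc, 96.5% for Hnrnpl, 97.6% for Hnrnpa2b1, 99.2% for Hnrnpd, 99.7% for Hnrnph1 and 100% for Hnrnpu. Hnrnph1, Hnrnpl and Hnrnpc had such high shares beside small whole numbers. For Gapdh the share was 17.5%, with 143 copies. Values of Hnrnpa1, Hnrnpf, Hnrnpk and Hnrnpm are uncertain to the extent that reads from shared stretches were split or dropped in counting. Their part in the results was not tested.

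The AU-rich heptamer TATTTAT, the kind of element that Hnrnpd protein binds, was searched on the sense strand in the 3′ UTR of each gene's longest coding transcript (GENCODE M21), and 27.5% of 20936 genes held it. Among the members only Hnrnpa1 and Hnrnpc held 1 match each. Both are shown with the heptamer in capitals (GRCm38, chr15:103244688-103244710, plus strand, and chr14:52073449-52073471, minus strand), and their part in the results was not tested.
Hnrnpa1: ttggaattTATTTATggttgctt
Hnrnpc: gggtattgTATTTATtcaggtga
Hnrnpk and Hnrnpa2b1, with 3′ UTRs of 1301 and 516 bases, held 0 matches. The Pumilio motif TGTANATA was in 0 member 3′ UTRs and in those of 23.3% of genes. A match is a string of letters in these annotated transcripts, and nothing follows from its absence about the factor.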

How the data were processed

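Poly(A) RNA of whole cells and of nuclear, cytosolic and membrane fractions of E14TG2a mESCs was sequenced in 48 libraries (4 fractions, 4 times, 3 replicates). The authors, as their processing notes and methods state, used STAR 2.7.6 for alignment to mm10 and RSEM 1.3.3 for counting, scaled libraries on mRNAs with long half-lives and divided each gene by its 0 min level, so the deposited values are a ratio (column header: normalized read count) and genes at 0 are not listed. The annotation used in counting these libraries is not given in the sources used here. The members, lists and tests were chosen with earlier results of these data known.

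Identifiers were matched to symbols in GENCODE M21 (GRCm38). For genes present in every library compared (12, or 24 for 2 fractions), limma 3.58.1 (R 4.3.3) was fitted to log2 ratios (empirical Bayes with trend, two-sided, Benjamini-Hochberg over all genes, adjusted p under 0.05), with time in hours or as a factor, without a pseudocount. For half-lives an exponential with free amplitude and rate was fitted to the ratios by least squares, and errors are SDs over the 3 replicate series. These steps were tested on simulated data. All 10 members are named; of the 22 further hnRNP genes the 2 lowest and 2 highest slopes per fraction, and of the genes like Hnrnpk the 3 nearest, of which 1 is not reported here; other genes that passed a test were named after their values were seen. Copies were sought with blastn in annotated transcripts, since no genome sequence was used here. Alternatives were a pseudocount of 0.1, other listing filters, other scalings, no trend, blocks for replicate number or harvest, leaving out replicates, the nuclear 30 min library of replicate 1 or the 240 min time, and 180 min as the last time. All fractions of a plate come from 1 cell pellet per the protocol, so fractions with the same time and replicate number were taken to share a harvest. Deviations from group means correlated at 0.033 to 0.15 in the 12 membrane and cytosol pairs (1 over 0.1) and at -0.095 to 0.063 in the 12 nucleus and cytosol pairs.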

Additional observations from a re-analysis of the deposited data

Results flagged for a closer look

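The slope of Hnrnpa2b1 was lower in the nucleus than in the cytosol by -0.82 log2 units per hour, with a limma test of the difference itself (SE 0.19, adjusted p = 0.00463). At each time all 3 nuclear libraries lay below all 3 cytosolic ones. Hnrnpd differed in the opposite direction, with a nuclear slope higher by 0.30 (SE 0.04, limma adjusted p = 6.66e-05), its nuclear slope being 0.14 and its cytosolic slope -0.16. Both are within the 20.6% of genes for which the nucleus and the cytosol differed. Groups of 3 were too small for a check of single outlying libraries.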

How the results depend on the processing

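The spread between replicates limits Hnrnpc, Hnrnpl, Hnrnpm, Hnrnpf and Hnrnpk, ratios carry no replicate error of the 0 min level, and half-lives beyond 240 min are extrapolations. Library scaling moved the most results. Centred on the median gene, 0 members fell in the cytosol (32.4% of all genes) and 2 in the membrane fraction (30.9%). Under this centring 0 were lower at 60 than at 30 min in the membrane fraction (1.5%). Slopes that changed sign under it were, in whole-cell RNA, those of Hnrnpa1 (0.18), Hnrnpd (0.21), Hnrnpu (0.18) and Hnrnpf (0.16), in the nucleus Hnrnpa1 (0.24), Hnrnpu (0.21) and Hnrnpf (0.051), in the cytosol Hnrnpa1 (0.21), Hnrnpa2b1 (0.16), Hnrnpc (0.28), Hnrnpd (0.13) and Hnrnpu (0.12), in the membrane fraction Hnrnpa1 (0.061), Hnrnpd (0.15) and Hnrnpu (0.042), and the nucleus and cytosol difference of Hnrnpa1 (0.030). The median half-life of members was then not finite in any fraction.

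With mitochondrial mRNAs as reference, 5 whole-cell, 2 nuclear and 0 cytosolic members fell, where 71.4%, 20.7% and 27.6% of all genes did. Lower at 60 than at 30 min were 2 whole-cell, 1 nuclear, 6 cytosolic and 5 membrane members, where 1.9%, 0.24%, 76.4% and 41.4% of all genes were. Slope differences passed for 0 members between nucleus and cytosol (0.0712% of genes) and for 5 between membrane fraction and cytosol (30.7%). Slopes that changed sign were those of Hnrnpc in whole-cell RNA (-0.083), the cytosol (0.15) and the membrane fraction (-0.015), of Hnrnpa1 in the nucleus (0.13) and cytosol (0.085), of Hnrnpu in the nucleus (0.099) and of Hnrnpa2b1 in the cytosol (0.038), and the differences of Hnrnpa1 for nucleus and cytosol (0.046) and of Hnrnpc (-0.17) and Hnrnpd (-0.28) for membrane fraction and cytosol. The median half-life became 270.1 min in whole-cell RNA and was not finite in the cytosol.

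With a pseudocount of 0.1 the step from 30 to 60 min passed for 2 whole-cell and 5 membrane members (9.97% and 21.6% of all genes). Among genes listed in all 48 libraries it passed for 2 in whole-cell RNA (5.12%). When genes needed only 1 listed library at each time it passed for 0 whole-cell and 1 membrane member (0.902% and 5.72%). Once replicate 1 at 30 min was dropped it passed for 5 nuclear members (25.3%). The pseudocount turned the nucleus and cytosol difference of Hnrnpk to 0.10 and that of Hnrnpa1 to 0.0061, the latter also without that nuclear library (0.0062). Over 30, 60 and 120 min alone, 3 members fell in the cytosol (49.5% of all genes). Slopes then differed for 1 member between nucleus and cytosol (7.55%) and for 2 between membrane fraction and cytosol (5.63%). Over those times the slope of Hnrnpc was -0.24 in whole-cell RNA and 0.27 in the cytosol. The differences of Hnrnpu (nucleus and cytosol, -0.14) and Hnrnpd (membrane fraction and cytosol, -0.31) changed sign. With 180 min as the last time the cytosolic slope of Hnrnpc was 0.026. The whole-cell median half-life was 140 min over the first 3 times, 427 min with 180 min as the last time, 160 min with A fixed at 1 and 1045 min from a straight line on log2.

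Leaving out 1 replicate at a time, 2 to 5 nuclear, 2 to 6 cytosolic and 2 to 4 membrane members fell. Of all genes 47% to 61.9%, 59.1% to 62% and 50.2% to 56.9% fell. Lower at 60 than at 30 min were 0 whole-cell, 0 cytosolic, 0 membrane and 0 to 2 nuclear members. Of all genes 0%, 0%, 0% to 0.0312% and 0% to 5.43% were. Between nucleus and cytosol 1 to 2 members differed, where 4.39% to 10.6% of genes did. The whole-cell median half-life was 298 to 726 min. Slopes that changed sign ranged, in whole-cell RNA, from -0.099 to 0.19 for Hnrnpc, -0.048 to 0.0036 for Hnrnpd and -0.16 to 0.057 for Hnrnpf, and for Hnrnpc from -0.30 to 0.16 in the cytosol and -0.14 to 0.52 in the membrane fraction. Differences between nucleus and cytosol ranged from -0.035 to 0.015 for Hnrnpa1 and -0.062 to 0.29 for Hnrnpf, and between membrane fraction and cytosol from -0.056 to 0.38 for Hnrnpc, -0.025 to 0.13 for Hnrnpd and -0.16 to 0.012 for Hnrnpu.

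With the replicate number as a block, 2 members passed the step in whole-cell RNA (2.69% of all genes) and 0 in the nucleus (0.0824%). The falling counts were then 3, 4, 5 and 4 in whole-cell RNA, nucleus, cytosol and membrane fraction. Of all genes 56.8%, 60.4%, 67.3% and 61.4% fell. Deviations of same-numbered libraries correlated at over 0.1 in only 3 of 18 whole-cell pairs and in 0 of 18 in each other fraction. Median correlations of same-numbered and other pairs were 0.015 and -0.0071 in whole-cell RNA and -0.0071 and 0.0025 in the nucleus. They were 0.027 and -0.014 in the cytosol and 0.022 and -0.012 in the membrane fraction. Correlations this low cannot decide whether the numbers pair libraries of different times. A block for each harvest gave 1 member with a membrane and cytosol difference (8.65% of all genes) and changed no other call of a member. It left 2 with a nucleus and cytosol difference (23.7%). Hnrnpk minus the other members in the nucleus stayed between -4.41 and -4.15 over the alternatives run for it. Beyond what the scalings themselves do, the cause of these changes was not tested.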
